A study of Pyronema omphalodes CBS 100304 with 6 samples.

Results

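Genes for 3 enzymes of carbon and energy metabolism are described here in the vegetative mycelium of the filamentous ascomycete *Pyronema confluens* (*Pyronema omphalodes* in the labels). *PCON_03749* encodes a putative alternative oxidase, *PCON_01866* a putative D-lactate dehydrogenase and *PCON_07559* a putative phosphoenolpyruvate (PEP) carboxykinase. These 3 genes of 13369 predicted genes were chosen by their lower read counts in the subjective morning than in the subjective evening, so that this difference is given for them as a description and without a test. All 3 had enough counts for testing, as had 5466 genes in total. One wild-type strain, CBS 100304, was grown in shaken liquid culture at 25°, kept in constant light for at least 24 hr and then moved to constant darkness. Mycelium was taken after 24 hr in darkness (DD24, subjective evening) or after 36 hr (DD36, subjective morning). The transfers were staggered so that total growth time at harvest was approximately equal, and harvest was under red light. Each time point had 3 libraries from independent replicates a, b and c, and no other genotype or treatment was used. Cultures of this age had stopped growing according to the study's methods. The labels name a medium abbreviated WPC and the paper minimal medium. No marker list for vegetative mycelium was available to check the labelled tissue.

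Alternative oxidase sits in the inner mitochondrial membrane and passes electrons from ubiquinol directly to oxygen. It thereby bypasses the proton-pumping complexes III and IV, and in *Neurospora crassa* its gene is induced when the cytochrome chain is impaired. D-lactate dehydrogenases interconvert D-lactate and pyruvate; one family uses NAD in the cytosol, another delivers electrons to cytochrome c in mitochondria, and the annotation of *PCON_01866* does not carry the word cytochrome that marks the second family. PEP carboxykinase turns oxaloacetate into PEP and is the entry step of gluconeogenesis. In *Aspergillus nidulans* the zinc cluster proteins AcuK and AcuM activate the genes for PEP carboxykinase and alternative oxidase, and CreA represses genes for the use of less favored carbon sources.

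The 3 genes lie on separate scaffolds of the reference genome v01_2. *PCON_03749* occupies scaffold 1496 from 88541 to 89951 on the plus strand, in 2 exons, with an mRNA model of 1342 bases that includes UTRs of 117 (5′) and 136 (3′) bases and a predicted protein of 363 residues. *PCON_01866* occupies scaffold 1145 from 54671 to 55989 on the minus strand in 5 exons. Its mRNA model of 1080 bases has UTRs of length 0 on both sides, so that its level per length refers to the coding part, and its predicted protein has 360 residues. *PCON_07559* occupies scaffold 332 from 33431 to 36559 on the minus strand in 4 exons. Its mRNA model measures 2945 bases, its UTRs 315 (5′) and 200 (3′) bases, and its predicted protein, at 810 residues, is the longest of the 3.

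The libraries held between 806459 and 1132608 deposited counts in total. The paper lists far more mapped reads for each of these libraries. Why the deposited counts are fewer is not given in the sources used here. Levels are given as CPM, which scales the counts of the tested genes to a common total after TMM normalization. A gene with 0 counts in a library may lie as high as 3 counts, or 2.55 to 4.73 CPM, within counting error alone. DD24 replicate a stood apart, with a TMM factor of 0.728 (1.02 to 1.13 in the other libraries) and 52.2% of its counts in the single model *PCON_08583* (30.7% to 39.3% elsewhere). The median log2 ratio over the genes tested was -0.00 with TMM and 0.23 with scaling by all counts, *PCON_08583* included. It was 0.07 with total counts from which *PCON_08583* and phage models had been removed. TMM centers the bulk of genes near 0 by construction, so these medians do not show which scaling is right. TMM was the main setting. Changes are therefore relative to the other genes, and in bulk RNA a lower level per cell cannot be told apart from a smaller share of cells with the transcript.

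Alternative oxidase mRNA was the most abundant of the 3. In DD24, replicates a to c held 1120, 2857 and 1676 counts of *PCON_03749*, and in DD36 they held 605, 1454 and 1419. These counts correspond to 1764, 2497 and 2032 CPM in DD24 and to 701, 1236 and 1303 CPM in DD36. The lowest DD24 library stood above the highest DD36 library, and replicate a was the lowest of its time point on both occasions. The means were 2098 ± 371 CPM (SD, n = 3) and 1079.8 ± 330.1 CPM (SD, n = 3), with a fitted log2 fold change of -0.96 (standard error 0.24), or -0.99 (standard error 0.15) when the replicate letter was a block in the fit.

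D-lactate dehydrogenase mRNA at DD36 had a fitted level of 0.458 times that at DD24. *PCON_01866* had 527, 1178 and 536 counts in DD24 and 369, 448 and 373 counts in DD36 (replicates a, b and c). Scaled, its level was 830.1, 1029.7 and 649.7 CPM in DD24 against 427, 381 and 342 CPM in DD36. The DD36 libraries lay close together and below every DD24 library, whereas replicate b stood out as high in DD24 alone. The mean level was 837 ± 190.1 CPM (SD, n = 3) in DD24 and 384 ± 42.5 CPM (SD, n = 3) in DD36, and the log2 fold change was -1.13 (standard error 0.19) without and -1.11 (standard error 0.14) with the block.

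PEP carboxykinase mRNA lay within a narrow range at DD36. For *PCON_07559* the counts were 913, 1771 and 857 in DD24 and 639, 920 and 876 in DD36, again for replicates a, b and c. This gave 1438, 1548 and 1039 CPM in DD24 and 740.0, 782 and 804 CPM in DD36. Replicate c was the low one in DD24 and the high one in DD36, and the time points did not overlap. Mean levels were 1342 ± 268 CPM (SD, n = 3) and 775 ± 32.6 CPM (SD, n = 3), with a log2 fold change of -0.79 (standard error 0.18), or -0.77 (standard error 0.15) with the block.

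**Figure D1:**
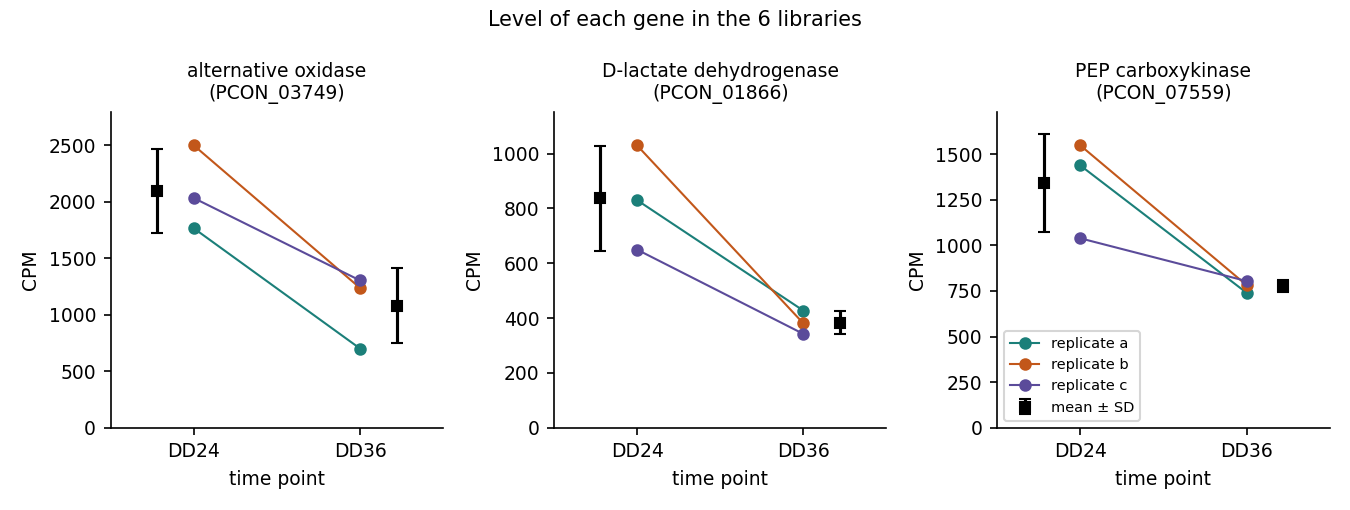
Level (CPM, vertical axes from 0) of alternative oxidase, D-lactate dehydrogenase and PEP carboxykinase at DD24 and DD36. Colored points are single libraries joined by replicate letter, and black squares are means ± SD over 3 libraries. Every line slopes downward, and PEP carboxykinase falls together at DD36 between 740.0 and 804 CPM.

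The values of both time points were free of overlap and DD36 was lower in 3 of 3 pairs for each of the 3 genes, the property on which they were picked. Among all 5466 genes tested, 5.87% were lower without overlap and 16.1% were lower in every pair. Nothing is read from the members' own counts against these shares.

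Replicate letters differed in how far each gene was reduced. For *PCON_03749* the DD36 level was 39.7% of the DD24 level in pair a, 49.5% in pair b and 64.1% in pair c. The exact 95% counting intervals of these ratios, 0.359 to 0.439, 0.464 to 0.527 and 0.597 to 0.689, did not touch each other. Alternative oxidase had the smallest difference in pair c and the largest in pair a. With scaling by all counts pairs a and b were close to each other (log2 ratios of -0.85 and -0.88). For *PCON_01866* the DD36 level was 51.5%, 37.0% and 52.7% of DD24 in pairs a, b and c, with intervals of 0.449 to 0.589, 0.331 to 0.413 and 0.461 to 0.603, and pair b was the lowest. For *PCON_07559* it was 51.5%, 50.5% and 77.4%, with intervals of 0.464 to 0.570, 0.466 to 0.547 and 0.704 to 0.852, and pair c was the highest. With scaling by all counts the log2 ratios of *PCON_01866* were -0.47, -1.30 and -0.81 in pairs a, b and c. Those of *PCON_07559* were -0.47, -0.85 and -0.26. The nearness of pair a to pair c in the former and to pair b in the latter thus depended on the scaling. The 95% intervals above cover counting error only and not the spread between cultures, and reads without molecular identifiers are not independent molecules.

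**Figure D2:**
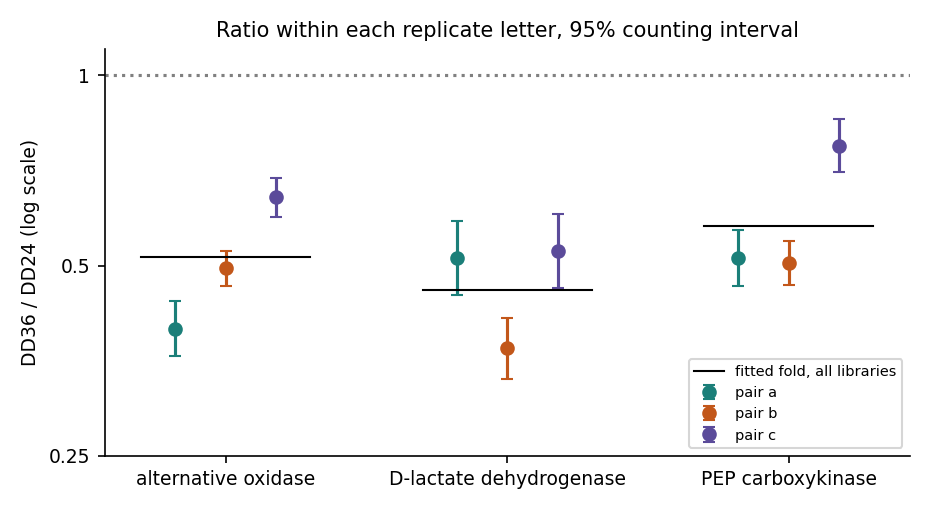
Ratio of DD36 to DD24 (log axis) within replicate letters a, b and c for each gene, after TMM scaling. Bars are exact 95% intervals for counting error, black lines the fitted fold over all 6 libraries, and the dotted line marks equal levels. Pair c of PEP carboxykinase lies nearest to 1 at 0.774 and pair b of D-lactate dehydrogenase farthest at 0.370.

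The spread between replicates entered the choice of the genes, which read their counts per library and per pair, and is given as a description. Libraries with the same letter shared part of their departure from the time point mean over all genes (correlations of 0.223, 0.272 and 0.316 for a, b and c). For alternative oxidase the fitted letter differences were 0.65 (b against a) and 0.55 (c against a) on the log2 scale, and both of its letter a libraries were the lowest of their time point. The SD of log2 CPM within time points was 0.39 for alternative oxidase, above that of 75.7% of the genes tested. It was 0.26 for D-lactate dehydrogenase (above 47.7% of genes) and 0.22 for PEP carboxykinase (above 35.4%).

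Per length of the mRNA model the order of the 3 levels was the same in 6 of 6 libraries. Alternative oxidase reached 1563 ± 276 CPM per kb (SD, n = 3) in DD24 and 805 ± 246 in DD36, rank 28 of 5466 by the mean over all libraries. D-lactate dehydrogenase followed with 775 ± 176 and 355 ± 39.4 CPM per kb (rank 85), and PEP carboxykinase with 456 ± 91.0 and 263 ± 11.1 CPM per kb (rank 173). All 3 were thus in the uppermost 3.17% of the genes tested. The level of alternative oxidase was between 1.32 and 3.06 times that of D-lactate dehydrogenase within a library, with the lowest ratio in DD36 replicate a and the highest in DD36 replicate c. That of PEP carboxykinase was 0.551 to 0.635 times the level of D-lactate dehydrogenase in DD24 and 0.635 to 0.861 times in DD36.

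A second gene exists for alternative oxidase. *PCON_11655* carries the same annotation and had 264, 625 and 353 counts in DD24 and 285, 440 and 407 counts in DD36. Its DD36 levels (330.0, 374.0 and 374 CPM) were below all of its DD24 levels (416, 546 and 428 CPM). *PCON_11655* did not pass (log2 fold change -0.37, standard error 0.16; adjusted p = 0.708 from edgeR and 0.271 with the replicate block). It passed with the block when pair a was left out (adjusted p = 0.0418 from edgeR), and its log2 ratio was -0.15 with scaling by all counts and -0.23 without DD24 replicate b. *PCON_03749* contributed 82.6% to 84.2% of the alternative oxidase level per kb in DD24 libraries and 70.4% to 79.6% in DD36 libraries, with the lowest share in DD36 replicate a. How reads that match both genes were assigned is not given in the sources used here, so the division between them is uncertain to that extent.

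The other genes annotated as D-lactate dehydrogenase were far less abundant than *PCON_01866*. *PCON_13551* and *PCON_06355*, both annotated as cytochrome-linked D-lactate dehydrogenases, stood at 47.6 ± 11.5 and 27.4 ± 1.53 CPM per kb in DD24 and at 44.1 ± 4.29 and 25.9 ± 6.11 in DD36 (SD, n = 3). Their log2 ratios were -0.09 (standard error 0.19) and -0.08 (standard error 0.21), with overlapping values at the time points (adjusted p = 0.979 and 0.986 from edgeR). *PCON_01866* accordingly held 89.7% to 93.1% of the summed level per kb of the 3 genes with this enzyme name in DD24 and 81.2% to 85.8% in DD36. Of 4 genes for cytochrome b2, which in yeast oxidizes L-lactate, *PCON_07478* alone was tested. It had 30, 48 and 28 counts in DD24 and 24, 37 and 24 in DD36 and did not pass (log2 fold change -0.59, standard error 0.24, edgeR adjusted p = 0.682), and the other 3 did not exceed 8 counts in any library. *PCON_07559* was the only model annotated as PEP carboxykinase.

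**Figure D3:**
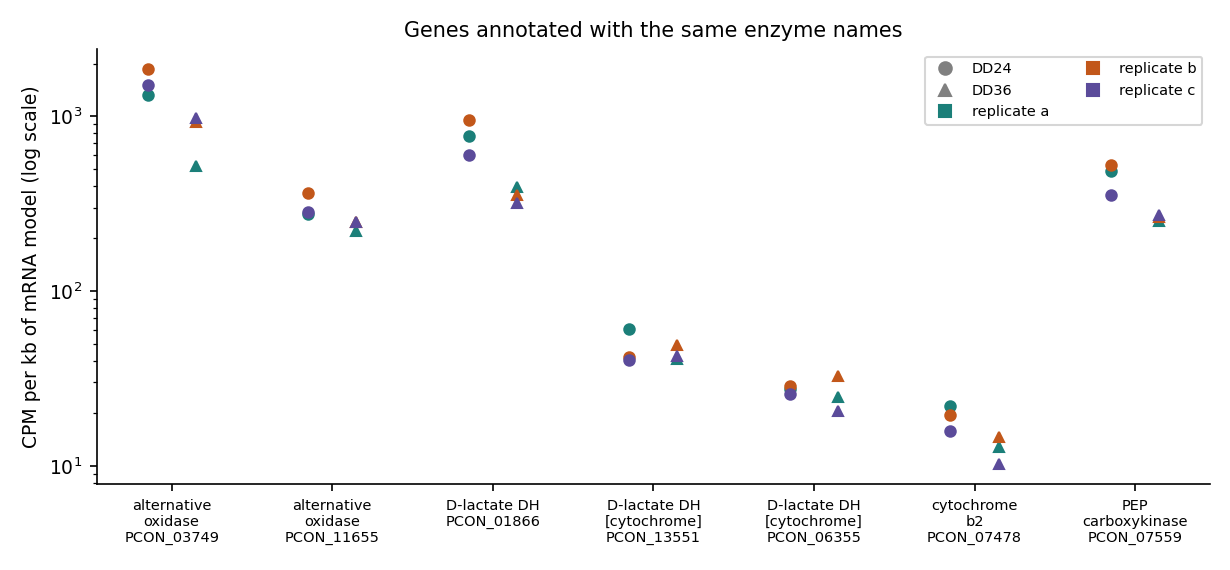
CPM per kb of mRNA model (log axis) of genes annotated as alternative oxidase, D-lactate dehydrogenase, cytochrome b2 (*PCON_07478* alone) and PEP carboxykinase in the 6 libraries. Circles are DD24, triangles DD36 and colors replicate letters. *PCON_03749* and *PCON_01866* lie above the other genes of the same name in all libraries.

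To place the enzymes in their pathways, 9 lists were drawn from words in the annotated product names. Besides the 3 genes they held 113 others, of which 96 were tested. Without the block 0 of the 96 passed an adjusted p of 0.05 (0% of all genes tested; 27 genes by DESeq2). With the block 2 of 96 were lower and 0 higher, where 1.30% of all genes were called. At an unadjusted p under 0.05 from edgeR 6 of the 96 were lower and 2 higher, with shares over all genes of 4.61% and 2.38%. Values that did not overlap were found for 8 lower and 7 higher genes (5.87% and 6.02% over all genes). The median log2 fold change of the 96 was -0.01, against -0.00 for all genes tested.

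PEP carboxykinase, for which no test between the time points is given, is left out of what follows on gluconeogenesis and the glyoxylate cycle. None of the remaining genes of this list passed, with or without the block. Of 6 tested, 5 had log2 fold changes below 0, with a median of -0.15 and a range of -0.39 to 0.25. *PCON_10168* encodes fructose-1,6-bisphosphatase, which catalyzes a later irreversible step of gluconeogenesis. It was at 197, 203 and 194 CPM in DD24 and at 139, 153 and 159.8 CPM in DD36. These values did not overlap, and their log2 ratio of -0.39 had a standard error of 0.15 (edgeR adjusted p = 0.630, with the block 0.241). With scaling by all counts the log2 ratio was -0.16. Pyruvate carboxylase (*PCON_11325*), which supplies the oxaloacetate that PEP carboxykinase uses, had overlapping values and no net difference (-0.00 on the log2 scale, standard error 0.19). Acetyl-CoA synthetase (*PCON_12360*) and the succinate/fumarate carrier (*PCON_02720*) were at -0.18 and -0.25 (standard errors 0.16 and 0.22), and isocitrate lyase (*PCON_11839*) and malate synthase (*PCON_08729*), the enzymes particular to the glyoxylate cycle, at 0.25 and -0.11 (standard errors 0.31 and 0.21).

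Glycolytic and malate enzymes around PEP, and enzymes of pyruvate use, also did not pass between the time points. Of 6 genes tested in the list around PEP, the median was -0.12. The glycolytic 6-phosphofructokinase gene *PCON_06425* was at -0.34 on the log2 scale without overlap of the time points (standard error 0.17, edgeR adjusted p = 0.726), NADP-dependent malic enzyme (*PCON_11158*) at -0.17 and pyruvate kinase (*PCON_04428*) at 0.14. Among 5 genes of pyruvate use, subunits of pyruvate dehydrogenase (*PCON_06148* and *PCON_04941*) were at -0.08 and -0.05. Pyruvate decarboxylase (*PCON_03112*), the first enzyme of alcoholic fermentation, had 115, 181 and 31 counts in DD24 and 66, 136 and 56 in DD36. It was low in letter c of DD24 and in letters a and c of DD36. Its letter effect passed in a fit with the time point (adjusted p = 0.00569 from edgeR, where 3.84% of all genes passed). In this fit the letter effect also passed for proline dehydrogenase (*PCON_09910*, edgeR adjusted p = 0.0467) and cytochrome c (*PCON_12322*, edgeR adjusted p = 0.0444). Between time points the log2 fold change of pyruvate decarboxylase was -0.62, with a standard error of 0.64. In the list of lactate and methylglyoxal metabolism 6 of 13 other genes were tested, with a median of -0.08. *PCON_07199*, similar to a carboxylic acid transporter, was at 0.27 (standard error 0.42).

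The list of ubiquinone-linked enzymes outside complex I also held electron transfer flavoprotein subunits, and subunits and an assembly factor of succinate dehydrogenase. Among its 14 other genes tested the smallest p was that of *PCON_06773*, annotated as a probable NADH dehydrogenase. It had 105, 282 and 120 counts in DD24 and 89, 145 and 110 in DD36. Its levels were 165, 247 and 145 CPM against 103, 123 and 101 CPM, so the time points did not overlap and DD24 replicate b was the highest. The log2 ratio of -0.78 had a standard error of 0.20 (edgeR adjusted p = 0.295). *PCON_06773* was called lower with the replicate block (edgeR adjusted p = 0.0140) but not when pair b was left out of that fit (0.592). Proline dehydrogenase (*PCON_09910*), which hands electrons from proline to ubiquinone, was at -0.77 on the log2 scale (standard error 0.33, edgeR adjusted p = 0.711, with the block 0.0633), with DD24 replicate c at 268 CPM and all other libraries between 83.4 and 132 CPM. Without DD24 replicate c the log2 ratio of *PCON_09910* was -0.27, and with the block and without pair c it was -0.36. It passed without the filter on low counts (edgeR adjusted p = 0.0204) and with the block without pair a (2.17e-05). The external alternative NADH dehydrogenase *PCON_05043* was at -0.10 (standard error 0.18). The median of the 14 genes was -0.03.

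The proton-pumping respiratory chain had medians near 0. It was 0.04 for 22 genes of complex I, of which 12 lay above 0, and -0.00 for 20 genes of complexes III and IV and cytochrome c, of which 10 lay above 0. For 12 genes of ATP synthase it was 0.13, and 9 lay above 0. Higher values in DD36 without overlap were found for 4 genes of complex I and 3 of ATP synthase, which were all 7 such genes of the lists (6.02% over all genes). Small subunits of ATP synthase had the smallest p of their list and no overlap, with log2 fold changes of 0.52 (*PCON_06104*, subunit g), 0.34 (*PCON_04321*, subunit e) and 0.18 (*PCON_07511*, subunit f) and standard errors of 0.18, 0.20 and 0.15. In complex I *PCON_12031*, *PCON_04807* and *PCON_02313* were at 0.40, 0.51 and 0.48 (standard errors 0.16, 0.25 and 0.27), the first and the last of them without overlap. Genes for assembly proteins of cytochrome c oxidase, *PCON_12501* (COX15) and *PCON_04776* (COX11), were at -0.38 (standard errors 0.21 and 0.26), and subunit 6A (*PCON_13179*) at -0.21 (standard error 0.16). The list genes with the highest mean CPM, subunits beta (*PCON_01281*) and alpha (*PCON_08199*) of ATP synthase, were at -0.00 and 0.08. None of these genes passed (adjusted p of 0.585 or above from edgeR), and their differences from the 3 chosen enzymes were not tested.

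**Figure D4:**
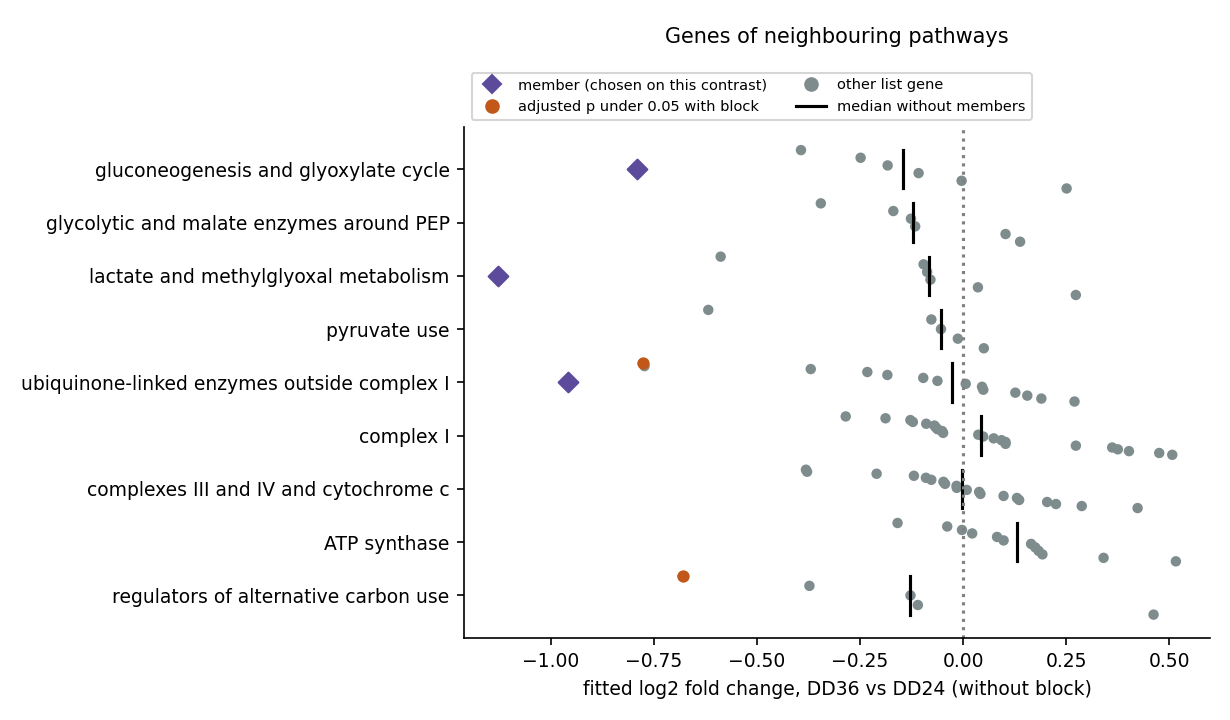
Fitted log2 fold change of DD36 vs. DD24 (edgeR without block) for each tested gene of the 9 word lists. Diamonds are the 3 genes chosen on this contrast, orange points the 2 genes with an adjusted p under 0.05 with the replicate block (*PCON_06773* and *PCON_04185*), and bars the list medians without the 3 genes, which lie between -0.15 and 0.13.

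Of 5 regulators of alternative carbon use, the gene for a CreA-like repressor had the smallest p. *PCON_04185* had 542, 1016 and 519 counts in DD24 and 417, 575 and 554 counts in DD36, or 854, 888 and 629 CPM and 483, 489 and 509 CPM. The time points did not overlap, and DD24 replicate c was the lowest of its group. Its log2 ratio of -0.68 had a standard error of 0.17 (edgeR adjusted p = 0.274). *PCON_04185* was called lower with the replicate block (edgeR adjusted p = 0.0228), as by DESeq2 (adjusted p = 0.0209), but not with the block when pair b was left out (0.704 from edgeR). The AcuK-like activator gene *PCON_13703* and the ERT1-like gene *PCON_07949* had overlapping values and were at -0.13 (standard error 0.21) and -0.11 (standard error 0.25) on the log2 scale. The kinase gene *PCON_04985*, similar to yeast Snf1, which relieves glucose repression, was at -0.37 (standard error 0.20). *PCON_08064*, similar to the yeast activator CAT8, was at 0.46 (standard error 0.42) on 4 to 19 counts per library.

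Of all genes tested, the CreA-like gene was the one whose pattern was most like that of PEP carboxykinase. Over the 6 libraries, which share depth and scaling between both genes, Pearson's r of log2 CPM was 0.999 and Spearman's rho 1. *PCON_04185* was picked as the highest of all these correlations, so the values that follow describe the same 6 libraries and add no support. The time points form separate groups, and the difference between them is part of r. For the deviations from the time point means, r was 0.993, and without the 2 libraries farthest from the median it was 0.994. The ratio of PEP carboxykinase to CreA-like CPM was between 1.65 and 1.74 in DD24 libraries and between 1.53 and 1.60 in DD36 libraries. *PCON_04185* also ranked first with RLE scaling, and with total counts from which *PCON_08583* and phage models had been removed.

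**Figure D5:**
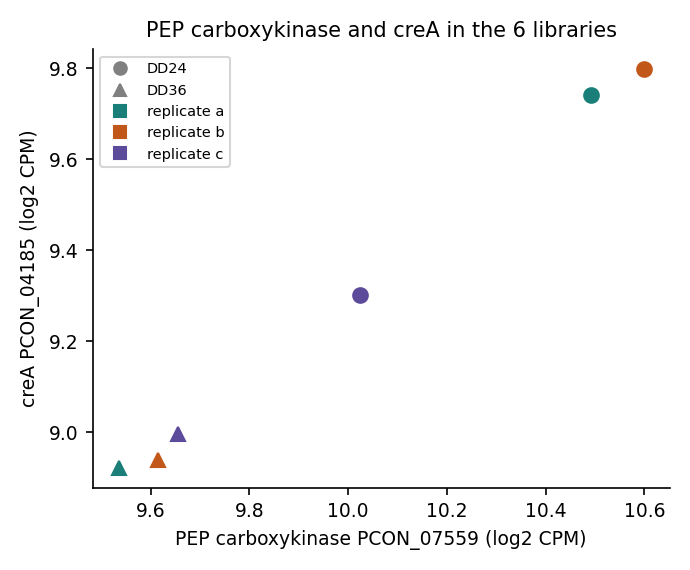
Log2 CPM of the PEP carboxykinase gene *PCON_07559* (horizontal) and the CreA-like gene *PCON_04185* (vertical) in the 6 libraries. Circles are DD24, triangles DD36 and colors replicate letters; the libraries have the same order on both axes, with DD24 replicate c between the other DD24 libraries and those of DD36.

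Next after CreA for PEP carboxykinase came *PCON_11012*, the copper chaperone of superoxide dismutase (r = 0.998), and the vesicle fusion protein gene *PCON_11809* (syntaxin-12, r = 0.995). For D-lactate dehydrogenase the uppermost gene was *PCON_11861*, of unknown function (r = 0.998), followed among annotated genes by *PCON_12737* with a SPRY domain (0.985), the coiled-coil protein gene *PCON_10770* (0.983) and a subunit of the adaptor complex AP-3, *PCON_02233* (0.975). The lists of D-lactate dehydrogenase and PEP carboxykinase had genes in common. *PCON_11012* and *PCON_11809* held ranks 7 and 9 for D-lactate dehydrogenase, *PCON_12737* rank 5 and *PCON_11861* rank 12 for PEP carboxykinase, and the CreA-like gene rank 17 for D-lactate dehydrogenase. Of the 10 genes most like *PCON_01866*, 5 remained when genes with fewer than 50 counts on average were left out. For alternative oxidase it was the hypothetical protein gene *PCON_09326* (r = 0.991), followed among annotated genes by endoplasmic oxidoreductin-1 (*PCON_13707*, 0.982), an enzyme of disulfide formation in the endoplasmic reticulum, the autophagy-related *PCON_08656* (0.981) and *PCON_06459* (0.977), similar to a subunit of Rab geranylgeranyl transferase. With 6 libraries each r rests on few points. An r of at least 0.9 was reached by 76 genes (1.39% of the others tested) for alternative oxidase. For D-lactate dehydrogenase it was 94 genes (1.72%) and for PEP carboxykinase 83 (1.52%).

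Between the enzymes themselves, D-lactate dehydrogenase and PEP carboxykinase ran most closely in parallel, with r = 0.961 over the 6 libraries and 0.758 for the deviations from the time point means. For alternative oxidase the corresponding values were 0.828 and 0.292 with PEP carboxykinase, and 0.760 and -0.12 with D-lactate dehydrogenase. Within time points the alternative oxidase gene thus followed another order of replicates than the D-lactate dehydrogenase gene, as the letter a values of both show.

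Genes next to the 3 enzymes were inspected from the coordinates of the gene models. None of the 3 models overlapped a neighbor. *PCON_03749* is separated by 1953 bases from *PCON_03748*, a serine-rich protein gene on the opposite strand (log2 fold change -0.36, standard error 0.29), and by 115 bases from *PCON_03750*, an acylphosphatase gene with 4 to 8 counts per library. *PCON_01866* and *PCON_01867*, a putative sterol glucosyltransferase gene, point away from each other across 2550 bases. *PCON_01867* was at -0.62 on the log2 scale (standard error 0.21, edgeR adjusted p = 0.589) and was called lower with the block (edgeR adjusted p = 0.0285). On the other side of *PCON_01866*, at 534 bases, *PCON_01865* had 1 to 12 counts. The neighbors of *PCON_07559*, *PCON_07558* and *PCON_07560*, were 6610 and 1799 bases away, at 0.24 and 0.12 on the log2 scale (standard errors 0.24 and 0.25).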

How the data were processed

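RNA of 6 cultures was sequenced. Read counts per predicted gene were deposited by the authors without normalization, after trimming and mapping to the v01_2 assembly. CASAVA 1.8.2 and DESeq are listed in the submitters' processing notes; for the aligner, counting tool, strand use and multiple matches the entry is "not given in the sources used here". LOX and DESeq ratios, base means and p-values by the authors stand in the same table and were not used; its lengths of gene models were.

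All 6 count columns were matched to a label and 0 were left out. Analyses used R 4.3.3 with edgeR 4.0.16 (filterByExpr, TMM, robust quasi-likelihood fit, Benjamini-Hochberg adjustment over all 5466 genes tested, threshold 0.05). limma 3.58.1 (voom) and DESeq2 1.42.0 served as alternatives. The edgeR tests were also run on simulated counts with the same spread for all genes. That run does not show how the tests behave with the spread of these libraries. Replicate letters were treated as pairs in an alternative fit because every same-letter correlation exceeded 0.1; the labels do not say what a letter shares. Replicates are described as independent cultures by the study. Chi-square divided by its degrees of freedom was 3.36 to 14.1 between libraries within a time point, so none was a copy. Likeness used log2 CPM with a prior count of 2.

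The genes, lists and tests were chosen with earlier results of these data known. Word lists were cleaned by name, leaving out 7 matches to other enzymes. Named are the 3 genes, other genes with their enzyme names, regulators of gluconeogenesis, list genes past the threshold with or without the block, the 3 of smallest p per list, the 2 most abundant list genes, the most similar patterns and the nearest neighbors. Pyruvate carboxylase, isocitrate lyase, malate synthase, *PCON_05043* and *PCON_12322* were added after their values were seen. No gene sequences were used.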

Additional observations from a re-analysis of the deposited data

How the results depend on the processing

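Over 17 alternatives (scalings, filters, replicate block, DESeq2, limma-voom, single libraries or pairs left out) the log2 fold change lay between -1.17 and -0.74 for *PCON_03749*, -1.28 and -0.90 for *PCON_01866*, and -0.97 and -0.55 for *PCON_07559*. The choice of these genes fixed their direction. The highest of these values came from scaling by all counts in each case. Without DD24 replicate a they were -1.07, -1.14 and -0.74.

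The number of genes called at an adjusted p under 0.05, 0 in the fit without the block, was 71 of all genes and 2 of the pathway genes with the replicate block, 53 and 3 without the filter on low counts, and 27 and 1 by DESeq2. With the block it was 191 and 5 without pair a, 2 and 0 without pair b, and 147 and 3 without pair c. Leaving out single libraries gave 0 to 20 genes, 20 of them without DD24 replicate c, and 0 pathway genes. RLE scaling, total-count scaling, a minimum of 10 counts in each library and limma-voom called 0 genes. The cause of these differences was not tested. For the letter effect of *PCON_03749* the adjusted p from edgeR was 0.103, or 5.77e-07 with scaling by all counts and 0.00447 without the filter. It stayed above 0.05 in the other settings tried, and for *PCON_01866* and *PCON_07559* in every setting tried. These values are not a valid test, because the 3 genes were chosen on counts per library and per pair of the same libraries. No conclusion on a letter effect is drawn from them. The CreA-like *PCON_04185* was below 0 in 17 of 17 alternatives (-0.84 to -0.44) and passed in 5, and *PCON_06773* was below 0 in 17 of 17 (-0.93 to -0.51) and passed in 4. With 3 libraries per time point and 2 time points, a difference cannot be assigned to a rhythm.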

Other observations

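Several enzymes of these pathways have further gene models that were hardly counted in this mycelium. A second pyruvate kinase model (*PCON_04429*) had 0 counts in all 6 libraries, which allows up to 2.55 to 4.73 CPM in a library. The NAD-dependent malic enzyme *PCON_09068* had 0 or 1 counts per library, as had the pyruvate carboxylase subunit model *PCON_01913*, and a second probable NADH dehydrogenase (*PCON_07927*) had 2 counts in DD36 replicate a and 0 elsewhere. Of 3 models similar to carboxylic acid transporters, *PCON_01537* did not exceed 3 counts and *PCON_11268* did not exceed 9 counts in any library.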
